A study of Mus musculus with 4 samples.

Results

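The nuclear-encoded respiratory chain genes studied here are 36 genes whose proteins are made in the cytoplasm, imported into mitochondria and built into the electron transport chain and ATP synthase. They were chosen by symbol, 15 for complex I, 3 for complex II, 4 for complex III, 8 for complex IV and 6 for complex V, out of 25636 genes in the count tables. All 36 symbols were found, in 37 rows, because Atp5o stands under 2 gene IDs. The row with more UMIs (unique molecular identifiers, each counting 1 captured RNA molecule) was used, and the other held 35 to 72 UMIs per library in proximal tubule nuclei. Female mice of 2 strains and 2 ages gave nuclei of the kidney cortex, in 1 library for each combination, namely MRL/lpr at 6 weeks, C57BL/6 at 6 weeks, MRL/lpr at 10 weeks and C57BL/6 at 10 weeks. Values for the 4 libraries follow that order throughout. MRL/lpr mice carry the lpr mutation of the death receptor gene Fas on the MRL background and develop a lupus-like nephritis, and C57BL/6 mice served as the comparison strain. Mutation and strain background cannot be told apart in this design, and the labels do not say how many animals went into a library.

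In the inner mitochondrial membrane, complexes I and II pass electrons from NADH and succinate to ubiquinone, complex III passes them on to cytochrome c, and complex IV, cytochrome c oxidase, passes them to oxygen. Complexes I, III and IV pump protons, and complex V uses the gradient to make ATP. Kidney tubules, and above all the proximal tubule, thick ascending limb and distal convoluted tubule, are packed with mitochondria that power sodium transport, whereas podocytes and endothelial cells hold fewer. Mature messenger RNA of such genes lies mostly in the cytoplasm, so in isolated nuclei its level also depends on the cytoplasmic RNA that stays with a nucleus or floats free. The sum of 79 cytoplasmic ribosomal protein genes, short and abundant messengers, was therefore taken beside the members as a measure of cytoplasmic RNA.

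Nuclei that passed the filters numbered 8663, 9147, 9063 and 8866, and their median depth was 693, 561, 626 and 569.5 UMIs. Nuclei were assigned to a class by their raw UMIs of marker genes. This gave 8 described classes, each of whose 10 leading genes held own markers and none of another class, while 9.94% to 12.9% of nuclei stayed unassigned. Proximal tubule was the largest class with 5418, 3926, 5331 and 4133 nuclei. Podocytes were few, with 109 to 220 nuclei per library. Levels are given in CPM, UMIs of a gene or list per 1000000 UMIs of the class in that library. With 1 library per group no difference between groups could be tested, no p-value is given, and the 95% intervals cover counting error only. Library pairs shared 112 to 143 cell barcodes.

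All 6 tubule classes held more nuclear-encoded respiratory chain RNA than podocytes or endothelium, in each of the 4 libraries. In proximal tubule nuclei the 36 members summed to 10637, 12785.5, 7349.6 and 10470.1 CPM. The sum was highest in C57BL/6 at 6 weeks and lowest in MRL/lpr at 10 weeks. Podocytes, the filtering cells of the glomerulus, had the lowest sum of the 8 classes in every library, at 4808, 5694, 3312.8 and 5048.2 CPM. Endothelium came next with 5663.8, 7629.8, 4818.9 and 6649.2 CPM. The proximal tubule sum was 2.07 to 2.25 times that of podocytes and 1.53 to 1.88 times that of endothelium. Transcripts encoded in mitochondrial DNA did not share this order. They made up 0.28%, 0.21%, 0.10% and 0.23% of UMIs in proximal tubule and 0.89%, 0.84%, 0.58% and 0.85% in endothelium. In podocytes their part was 0.27%, 0.99%, 0.12% and 0.97%.

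Within the tubule the classes lay closer together. Proximal tubule ranked first in 3 libraries, and intercalated cells, the acid-base cells of the collecting system, ranked first in MRL/lpr at 10 weeks with 7483.1 CPM, a value whose counting interval (7043.6 to 7942.9) covers that of the proximal tubule. Distal convoluted tubule had rank 3 in all 4 libraries, at 6956 to 11281.7 CPM. Thick ascending limb ranked between 2 and 6 at 6588.5 to 10162.9 CPM. Connecting tubule and principal cells held 6688.4 to 9506.4 and 6351.4 to 10525.5 CPM, and their order among the tubule classes differed from library to library.

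Read against ribosomal protein RNA, the order within the tubule was different. Proximal tubule nuclei held 12857.6 to 23842.4 CPM of ribosomal protein RNA and the other 5 tubule classes 8289.2 to 13993.7 CPM. Member CPM divided by ribosomal protein CPM was 0.446, 0.638, 0.572 and 0.584 in proximal tubule. In distal convoluted tubule it was 0.846, 0.899, 0.837 and 0.829, and the other tubule classes lay between 0.671 and 0.886. Proximal tubule was thus below each of the 5 other tubule classes in 4 of 4 libraries on this scale, having been above 4 of them in all libraries on the CPM scale.

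Podocytes and endothelium stayed at the bottom on both scales. Podocytes had 0.366 to 0.406 member CPM per ribosomal protein CPM, and endothelium had 0.249 to 0.315, the lowest class in every library. The order of endothelium and podocytes therefore differed between the scales, since endothelium carried 16135.4 to 26728.9 CPM of ribosomal protein RNA. Proximal tubule markers, which mark RNA carried over between nuclei, stood at 1041.5 to 2122.3 CPM in the other 7 classes and at 19288.3 to 21994 CPM in proximal tubule itself. The part of this carried-over RNA in the levels of other classes was not corrected for. In a stricter set, nuclei of other classes with a proximal tubule marker UMI were left out. Proximal tubule nuclei with a marker UMI of another class were left out too, so 494, 172, 507 and 330 of them stayed. There the 6 tubule classes still exceeded podocytes and endothelium in 4 of 4 libraries. This choice does not remove carried-over RNA from the nuclei that stayed.

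**Figure D1:**
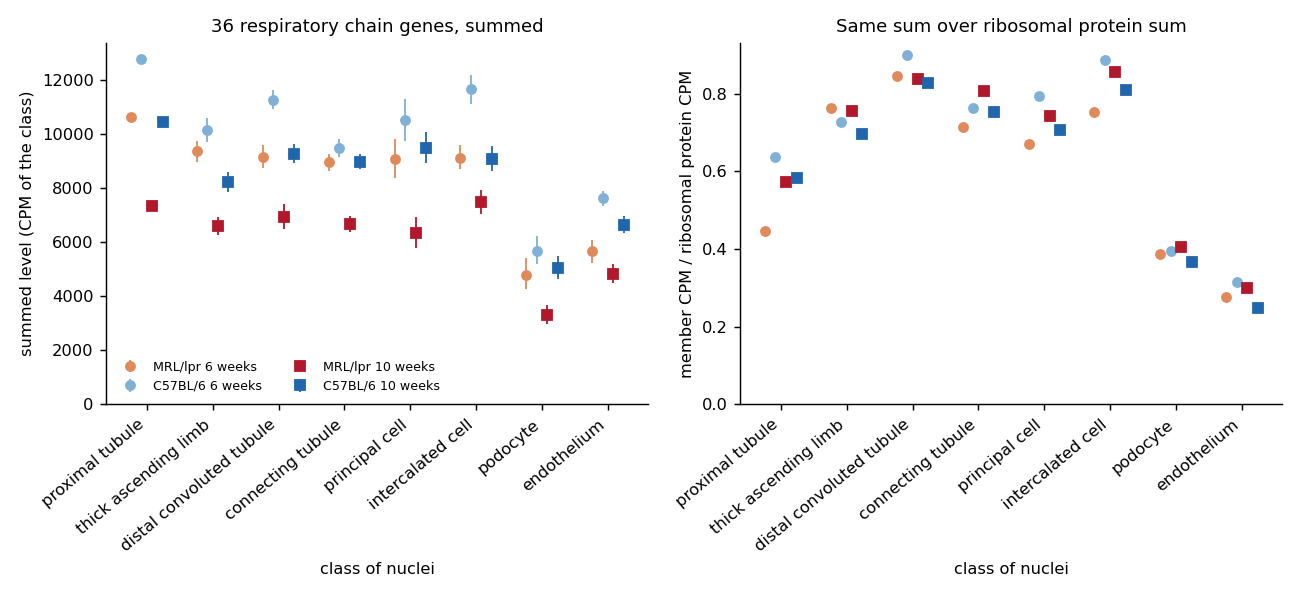
The left panel plots the summed CPM of the 36 members in 8 classes of nuclei and 4 libraries with 95% counting intervals, and the right panel plots the same sum divided by the ribosomal protein sum. The 6 tubule classes stand above podocyte and endothelium in both panels, while proximal tubule moves from 7349.6 to 12785.5 CPM at the left, mostly the top, to ratios of 0.446 to 0.638 at the right, below the other tubule classes.

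The complexes were compared between the tubule classes one by one. Complex IV carried 34.0% to 41.7% of all member UMIs in proximal tubule and complex I 31.6% to 34.4%. Complex IV was higher in proximal tubule than in each of the other 5 tubule classes in 4 of 4 libraries, by 1.23 to 1.45 times over thick ascending limb and 1.31 to 1.39 times over distal convoluted tubule. Complex V, the ATP synthase, was lower in proximal tubule than in distal convoluted tubule in 4 of 4 libraries, at 0.858 to 0.907 times, though in 2 libraries the interval of the latter covered the proximal tubule level. Complex II was lower in proximal tubule than in connecting tubule in 4 of 4, at 0.937 to 0.960 times, and complex III was lower than in intercalated cells in 4 of 4, at 0.805 to 0.984 times. The complex II difference was within counting error, since the interval of connecting tubule covered the proximal tubule level in 4 of 4 libraries. For complex III the interval of intercalated cells did so in 3 of 4. In C57BL/6 at 10 weeks it was 706.4 to 989.7 CPM, beside 675.9 CPM in proximal tubule.

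Single members also differed between the classes. Against podocytes, 34 of 36 members were higher in proximal tubule in all 4 libraries, and the others, Ndufs1 and Ndufv2, in 3. Against endothelium 29 of 36 were higher in 4 of 4. Against thick ascending limb, 17 were higher in proximal tubule in 4 of 4 libraries and 5 were lower in 4 of 4. Those 5 were Ndufs1, Ndufs3 and Ndufv1, core subunits of the complex I arm that holds the redox centres, Ndufa9, an accessory subunit, and Sdha, the flavoprotein of succinate dehydrogenase. Their mean CPM in proximal tubule was 0.645 (Ndufv1) to 0.851 (Ndufa9) times that in thick ascending limb. At the other end stood Ndufa2, an accessory subunit of complex I, at 1.82 times, and Cox7c, a small subunit of cytochrome c oxidase, at 1.72 times. The share of all genes with such orders in 4 of 4 libraries is not given, so these counts alone do not set the members apart. Some rest on few podocyte UMIs over the 4 libraries, such as 11 for Ndufa9 and 14 each for Sdhc and Uqcrc1. By mean CPM, the median log2 ratio of proximal tubule to podocytes was 1.09 over 13 members with enough UMIs. It was 0.84 over 32 members against endothelium and 0.23 over 36 against thick ascending limb. All other genes had medians of -0.61, -0.34 and -0.26.

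The difference from thick ascending limb varied with the length of the messenger. The longest annotated protein-coding transcript was under 1000 bases for 19 members and at least that long for 17. The median log2 ratio of proximal tubule to thick ascending limb (mean CPM over the 4 libraries) was 0.50 for the short members and -0.20 for the long ones. Against distal convoluted tubule the medians were 0.43 and -0.30. All other genes with at least 50 UMIs in both classes showed the same direction, with medians of 0.38 for 226 short genes and -0.29 for 4044 long ones against thick ascending limb. Ribosomal protein genes had a median of 0.69. Against endothelium the 19 short members had a median of 0.77 and the 13 long members with enough UMIs had 0.92, so there both kinds were higher in proximal tubule. What part transcript length has in these class differences was not tested.

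MRL/lpr nuclei held less nuclear-encoded respiratory chain RNA than C57BL/6 nuclei of the same age in all 8 classes at both ages. In proximal tubule the member sum of MRL/lpr over that of C57BL/6, on the log2 scale, was -0.27 for 6-week mice (95% counting interval -0.28 to -0.25) and -0.51 for 10-week mice (-0.53 to -0.49), or 1.20 and 1.42 times lower. The smallest difference was in connecting tubule at 6 weeks, at -0.085 (-0.16 to -0.013). The largest was in podocytes at 10 weeks, at -0.61 (-0.81 to -0.41). At 6 weeks the other ratios were -0.12 in thick ascending limb, -0.21 in principal cells, -0.24 in podocytes, -0.30 in distal convoluted tubule, -0.35 in intercalated cells and -0.43 in endothelium. At 10 weeks they ran from -0.28 in intercalated cells to -0.58 in principal cells, and all 16 intervals lay below 0. These class values were less stable than that of proximal tubule. In nuclei with at least 500 genes the principal cell ratio at 10 weeks was -0.053, that of podocytes was -1.03, and that of thick ascending limb at 6 weeks was -0.45. With proximal tubule marker UMIs absent, thick ascending limb at 6 weeks stood at 0.062, so there the direction turned.

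In proximal tubule, ribosomal protein RNA was lower in MRL/lpr at 10 weeks, as the members were, but higher at 6 weeks. Its strain ratio there, also log2, was 0.25 (0.24 to 0.26) in the younger and -0.48 (-0.50 to -0.46) in the older mice. The ratio of members to ribosomal protein RNA was therefore lower in MRL/lpr at 6 weeks, at -0.52 (-0.54 to -0.49), and nearly equal in the strains at 10 weeks, at -0.031 (-0.059 to -0.0038). The mitochondrially encoded transcripts, which never leave mitochondria and so are no nuclear RNA, had strain ratios of 0.40 and -1.18 in the same nuclei. A list of 24 other abundant cytoplasmic messengers had summed ratios of 0.17 and -0.19, though the median of its genes was -0.063 and -0.35. MRL/lpr at 10 weeks was the library with the least ribosomal protein RNA in all 8 classes, and the share of any 10-week strain difference that goes with less cytoplasmic RNA in this 1 library was not tested. In the other classes ribosomal protein RNA at 6 weeks had strain ratios of -0.24 (endothelium) to 0.027 (principal cell), and the intervals of thick ascending limb, distal convoluted tubule, intercalated cells, podocytes and endothelium lay below 0. The members-to-ribosomal ratio at 6 weeks there was -0.24 (-0.45 to -0.037) in principal cells, -0.23 (-0.36 to -0.10) in intercalated cells and -0.19 (-0.33 to -0.055) in endothelium, and between -0.092 and 0.070 in the others, with intervals that spanned 0. In the same 7 classes the members-to-ribosomal ratio at 10 weeks was higher in MRL/lpr, by 0.015 in distal convoluted tubule to 0.26 (0.12 to 0.41) in endothelium, and only the interval of endothelium lay off 0.

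The leading genes of these reference lists did not move as 1 block. Rpl41, the ribosomal protein gene with most UMIs, had 1180.6, 1164, 729.2 and 876.6 CPM and strain ratios of 0.020 (-0.038 to 0.079) and -0.27 (-0.34 to -0.19), and Rps19 had 768.9, 505.3, 374.3 and 418.3 CPM. The mitochondrially encoded mt-Co3, a subunit of the same complex IV, had 662.2, 504.2, 265.1 and 520.8 CPM, and mt-Co1, its catalytic subunit, had 450.5, 379.2, 220 and 423.9 CPM. For both, MRL/lpr was the highest library at 6 weeks and the lowest at 10 weeks. Among the other cytoplasmic messengers Ftl1, the ferritin light chain, was higher in MRL/lpr at both ages, with 3728, 2133, 2557.2 and 1539.1 CPM and ratios of 0.81 and 0.73. The whole list held 9657.4, 8585, 6374 and 7275.2 CPM, so its excess in MRL/lpr at 6 weeks was smaller than that of Ftl1 alone. Fth1, the ferritin heavy chain, had 1468.1, 1481.1, 700.3 and 1402.9 CPM and was low in MRL/lpr at 10 weeks alone.

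**Figure D2:**
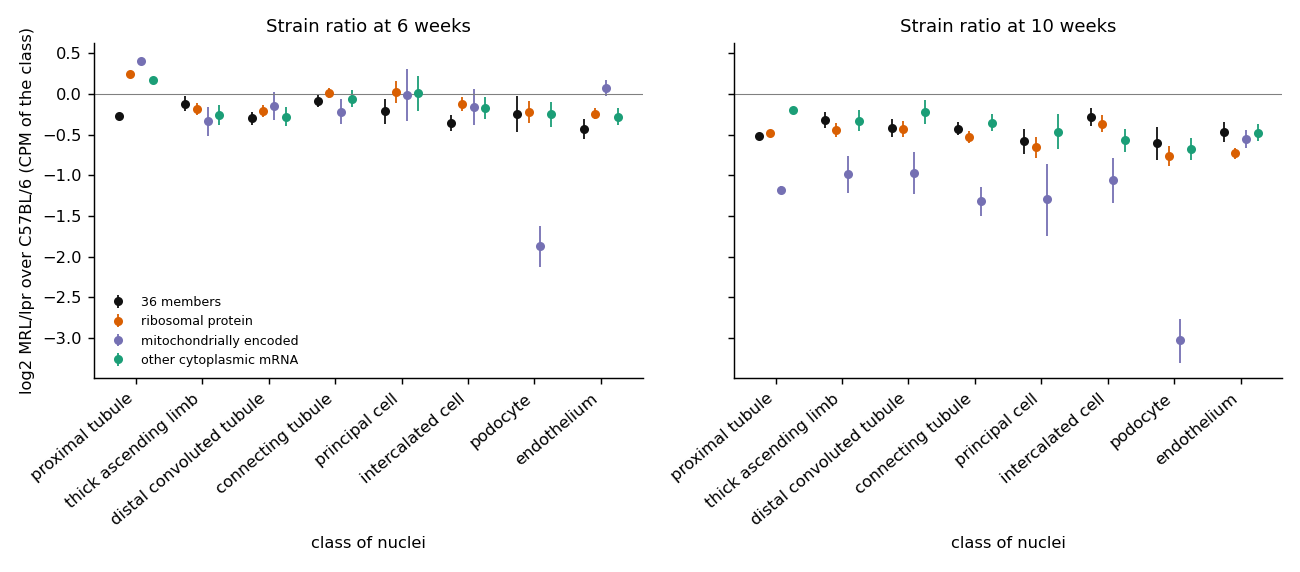
Points are log2 ratios of MRL/lpr to C57BL/6 with 95% counting intervals for 4 summed gene lists in each class, at 6 weeks (left) and 10 weeks (right). The members (black) lie below 0 in every class at both ages, whereas ribosomal protein, mitochondrially encoded and other cytoplasmic RNA of proximal tubule lie above 0 at 6 weeks (0.25, 0.40 and 0.17) and below it at 10 weeks. For the last list, not drawn here, the median gene of proximal tubule lay at -0.063 at 6 weeks.

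The members were also compared within ranges of ribosomal protein RNA. Proximal tubule nuclei were thinned at random to 500 UMIs each, which left out 346, 125, 562 and 369 shallower nuclei, and were sorted by their ribosomal protein UMIs. Over all thinned nuclei there were 5.33, 6.30, 3.73 and 5.20 member UMIs per nucleus. Among nuclei with 0 to 6 such UMIs, member UMIs per nucleus were 4.00, 5.31, 3.39 and 4.01. Among nuclei with 13 or more they were 6.48, 7.85, 5.06 and 7.30. In all 4 strata, which also included 7 to 8 and 9 to 12 ribosomal protein UMIs, both MRL/lpr libraries were below the C57BL/6 library of their age with no overlap of counting intervals. Over all nuclei the strains stood at 3.73 against 5.20 at 10 weeks. This gap was smaller in the lowest stratum, 3.39 against 4.01, and in the middle ones, 3.79 against 4.67 and 4.30 against 5.55. In the highest stratum it was larger, 5.06 against 7.30. The strata are wide, so nuclei in them are not matched on ribosomal protein RNA, and the libraries filled them unevenly, since 56.5% of the thinned MRL/lpr nuclei of 10 weeks but 33.9% of the C57BL/6 ones fell in the lowest.

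**Figure D3:**
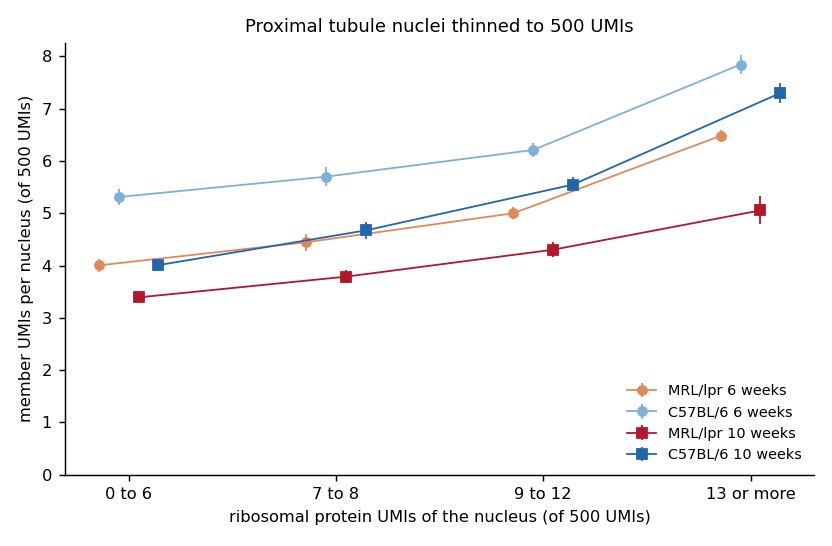
The plot gives member UMIs per nucleus (y axis) in proximal tubule nuclei thinned to 500 UMIs, against the ribosomal protein UMIs of the same nuclei in 4 strata (x axis), with 95% counting intervals and 1 line per library. Member UMIs are higher along the axis in each library, and in every stratum MRL/lpr lies below C57BL/6 of the same age, for example 4.00 against 5.31 at 6 weeks and 3.39 against 4.01 at 10 weeks in the lowest stratum.

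The size of the proximal tubule difference depended on which nuclei were counted. By UMIs per nucleus, the log2 strain ratio of the member sum was -0.37 under 500 UMIs, -0.21 from 500 to 1000 and -0.33 above 1000 at 6 weeks, and -0.17, -0.44 and -0.66 in the same bins at 10 weeks. In the few nuclei with no marker UMI of any other class (494, 172, 507 and 330) it was -0.15 at 6 weeks, and complexes III, IV and V stood at -0.0060, -0.15 and 0.039, the last with the opposite sign.

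Member by member, 30 of 36 were lower in MRL/lpr proximal tubule at both ages, against 27.9% of all 12012 genes compared there. None was higher at both ages, against 33.4% of all genes, and 6 had opposite directions, against 38.7%. All 36 members passed the minimum of 50 UMIs over the 4 libraries. At 6 weeks 34 members were lower (50.5% of all genes), and at 10 weeks 32 (44.1%). By at least 0.32 on the log2 scale, 12 were lower at 6 weeks (21.3% of all genes), 27 at 10 weeks (20.4%) and 10 at both ages (9.28%). None was 2-fold lower at both ages, as 1.71% of all genes were. The median member ratio was -0.25 at 6 weeks and -0.52 at 10 weeks, while the median of all genes was -0.0066 and 0.061. The other classes had fewer UMIs and more mixed members, with 19 of 36 lower at both ages in thick ascending limb (30.6% of its genes), 26 of 36 in distal convoluted tubule (32.5%), 16 of 36 in connecting tubule (28.4%) and 19 of 35 in intercalated cells (30.8%). Of members with 50 UMIs, 14 of 24 were lower at both ages in principal cells (26.1%), 10 of 13 in podocytes (30.9%) and 23 of 32 in endothelium (33.1%).

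**Figure D4:**
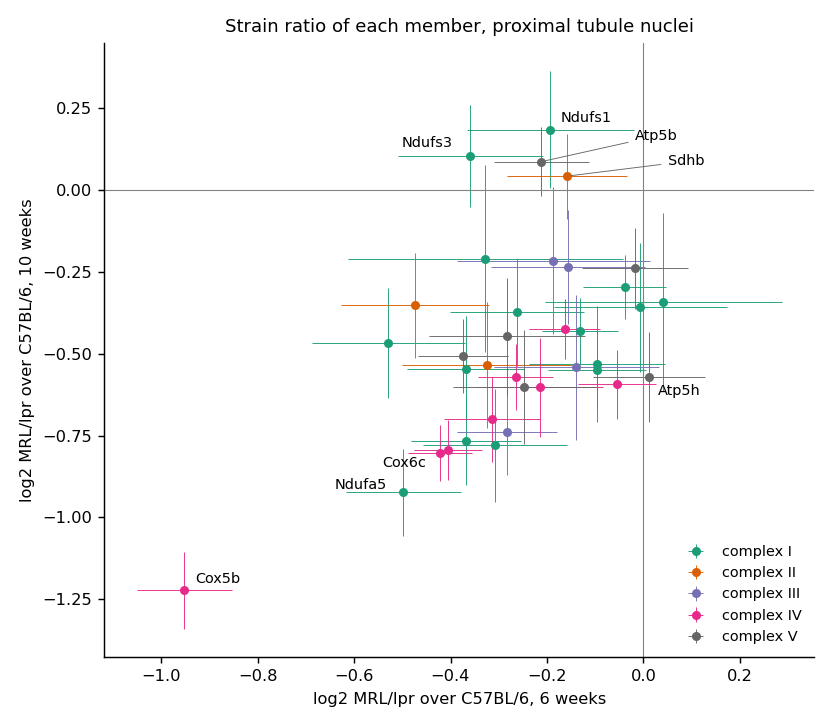
Each point is 1 of the 36 members in proximal tubule nuclei, at its log2 ratio of MRL/lpr to C57BL/6 at 6 weeks (x axis) and 10 weeks (y axis), with 95% counting intervals and the complex as colour. No point lies above 0 on both axes, 30 lie below 0 on both, and Cox5b stands apart at -0.95 and -1.22.

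Cytochrome c oxidase, complex IV, showed the largest strain difference of the 5 complexes in proximal tubule at 10 weeks. At 6 weeks its interval overlapped that of complex II, and its ratio was -0.28 without Cox5b and -0.15 in nuclei with no marker UMI of another class, beside -0.29 for complex II in all proximal tubule nuclei and -0.38 in those without such UMIs. Its 8 measured subunits summed to 4219.5, 5331.4, 2494.8 and 4077.3 CPM in proximal tubule, and MRL/lpr differed by -0.34 (-0.37 to -0.31) at the younger and -0.71 (-0.75 to -0.67) at the older age. All 8 subunits were lower in MRL/lpr at both ages. Against ribosomal protein RNA complex IV was also lower at 10 weeks, at -0.23 (-0.27 to -0.19). Its share of all member UMIs was 39.7%, 41.7%, 34.0% and 38.9%, lowest in MRL/lpr at 10 weeks.

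Cox5b, a nuclear-encoded subunit on the matrix side of cytochrome c oxidase, had the lowest strain ratios of all members at both ages. The gene (ENSMUSG00000061518) lies on the plus strand at chr1:36691449-36693681 of GRCm38. Proximal tubule nuclei held 1424, 2042, 874 and 1772 Cox5b UMIs, or 299.1, 578.7, 212 and 494.5 CPM. Both MRL/lpr libraries were below both C57BL/6 libraries. On the log2 scale the younger mice differed by -0.95 (-1.05 to -0.85) and the older ones by -1.22 (-1.34 to -1.10).

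Cox5b was lower in MRL/lpr in 8 of 8 classes at both ages. Its ratios ran from -0.86 in distal convoluted tubule to -1.63 in intercalated cells at 6 weeks, and from -0.80 in intercalated cells to -2.21 in principal cells at 10 weeks. Principal cells held only 10, 29, 8 and 56 Cox5b UMIs, and podocytes 5, 19, 10 and 20, where both intervals reached past 0. In thick ascending limb the levels were 251.2, 554.3, 187.6 and 433.5 CPM. Of the last 300 bases of its transcript, 1.5% of the overlapping 31-base words occur in other genes. Without Cox5b the member sum ratio in proximal tubule was -0.24 at 6 weeks and -0.48 at 10 weeks, and its ratio to ribosomal protein RNA at 10 weeks was -0.0037, beside -0.031 with it.

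The stretches upstream of the RefSeq start sites (GRCm38) of Cox5b, the member with the lowest strain ratios, and of Cox6a1, a subunit of the same complex with motif matches, are shown for comparison, both read on the strand of the gene. Bases in capitals are matches to the 10-base palindrome bound by nuclear respiratory factor 1 (NRF1) and, on the opposite strand, to the word CCGGAAG of ETS-type factors. Cox5b lies at chr1:36691287-36691473, plus strand, and Cox6a1 at chr5:115348959-115349158, minus strand.
Cox5b: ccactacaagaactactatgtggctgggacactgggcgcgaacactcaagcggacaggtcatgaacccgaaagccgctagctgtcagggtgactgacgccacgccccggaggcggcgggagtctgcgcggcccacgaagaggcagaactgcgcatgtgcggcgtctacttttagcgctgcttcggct
Cox6a1: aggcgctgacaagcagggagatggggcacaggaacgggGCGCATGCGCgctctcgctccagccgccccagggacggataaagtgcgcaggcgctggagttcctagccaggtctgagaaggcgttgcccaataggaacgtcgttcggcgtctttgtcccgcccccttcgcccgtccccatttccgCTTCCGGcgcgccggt
Of the 27 members with an entry in the RefSeq promoter table (250 bases before to 50 after the start), 5 held CCGGAAG on either strand, or 18.5% against 9.93% of 27025 genes. This word was in 30.6% of 36 other nuclear-encoded subunits and in 40.7% of 59 ribosomal protein genes. The NRF1 motif was in 2 of 27, Cox6a1 and Uqcrc1, or 7.4% against 1.07% of genes, 8.3% of the other subunits and 3.4% of the ribosomal protein genes. The motif of the factor YY1 was in 1, Ndufa9, and TCAAGGTCA, a word of oestrogen-related receptors, in 0. Both strands were searched, no overlap between the motifs occurred in the printed stretches, and a match is no measured binding site.

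The other leading subunits of cytochrome c oxidase followed with smaller differences. Cox6c, the member with most UMIs, stood at 778.4, 1043, 446.1 and 777.8 CPM in proximal tubule, with strain ratios of -0.42 (-0.49 to -0.36) and -0.80 (-0.89 to -0.72). MRL/lpr at 10 weeks was lowest and C57BL/6 at 6 weeks highest. Cox7c had 678.2, 898.1, 394.9 and 684.9 CPM and ratios of -0.41 and -0.79. Both genes were lower in MRL/lpr in 8 of 8 classes at both ages. Both share much of their transcript end with other genes, 44.4% of 31-base words for Cox6c and 75.2% for Cox7c, so their counts are uncertain where copies could take or lose reads.

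Cox8a, at 688.3, 770.6, 428.1 and 574.3 CPM, had ratios of -0.16 and -0.42, the smallest of complex IV at 10 weeks. Cox6a1, at 600.7, 721.9, 347.4 and 516 CPM, had ratios of -0.27 and -0.57, with 19.6% of its transcript-end words shared. Cox4i1, Cox5a and Cox7a2 ranged from -0.31 to -0.055 at 6 weeks and from -0.70 to -0.59 at 10 weeks. The interval of Cox4i1 reached past 0 at 6 weeks (-0.14 to 0.026).

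Complex I, NADH dehydrogenase, held 3475.8, 4041, 2527.3 and 3453.3 CPM over 15 members, with strain ratios of -0.22 (-0.25 to -0.18) and -0.45 (-0.49 to -0.41). Of its members 12 of 15 were lower in MRL/lpr at both ages. Ndufa5, an accessory subunit of the arm that holds the redox centres, had 235.7, 332.7, 181.7 and 344.7 CPM and ratios of -0.50 (-0.62 to -0.38) and -0.92 (-1.06 to -0.79). Both MRL/lpr libraries lay below both C57BL/6 libraries. In nuclei with no marker UMI of another class its 10-week ratio was -0.31.

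Ndufa4, first assigned to complex I and since found in cytochrome c oxidase, had 610.6, 669.1, 350.3 and 472.5 CPM and ratios of -0.13 and -0.43. Counted with complex IV instead, it left both complexes lower in MRL/lpr at both ages. Ndufa13, an accessory subunit also known as Grim19, had 539.4, 554.1, 403.9 and 495.6 CPM and ratios of -0.039 (-0.12 to 0.047) and -0.30 (-0.39 to -0.20). At 6 weeks it therefore did not differ beyond counting error.

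Ndufa6, an accessory subunit, had 376.6, 402.5, 248.6 and 364.2 CPM and ratios of -0.096 and -0.55. Ndufa2 had 271.1, 350, 183.4 and 311.7 CPM and ratios of -0.37 and -0.77. In both genes MRL/lpr at 10 weeks was the lowest library and C57BL/6 at 6 weeks the highest. The remaining complex I members were Ndufa1, Ndufb3, Ndufb8, Ndufb9, Ndufb10, Ndufa9 and Ndufv2, lower at both ages with 10-week ratios of -0.78 (Ndufb10) to -0.21 (Ndufa9), and Ndufs1, Ndufs3 and Ndufv1, whose directions differed between the ages.

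In 3 complex I members the order of the strains differed between the ages. Ndufs1, the largest subunit, with iron-sulphur clusters, had 126.4, 144.5, 143.1 and 125.9 CPM, a ratio of -0.19 (-0.37 to -0.020) at 6 weeks and of 0.19 (0.0060 to 0.37) at 10 weeks. Ndufs3 had 156.3, 200.4, 181.2 and 168.6 CPM and ratios of -0.36 (-0.51 to -0.21) and 0.10 (-0.052 to 0.26). Both were lower in MRL/lpr at 6 weeks and higher at 10 weeks, although the 10-week interval of Ndufs3 spans 0 and 66.3% of the words of its transcript end occur elsewhere. Ndufv1, which binds NADH, had a ratio of 0.041 (-0.20 to 0.29) at 6 weeks and -0.34 (-0.61 to -0.070) at 10 weeks. These 3 genes were chosen for description after their values were seen.

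Complex II, succinate dehydrogenase, is encoded by nuclear genes alone and also serves the citric acid cycle. Its 3 measured members summed to 507.9, 622.1, 500.4 and 577.1 CPM, with strain ratios of -0.29 (-0.38 to -0.21) and -0.21 (-0.29 to -0.12). It was the complex with the smallest difference at 10 weeks, though -0.43 in nuclei with no marker UMI of another class, and relative to ribosomal protein RNA it was higher in MRL/lpr then, at 0.27 (0.18 to 0.36). Sdha had 145.6, 202.1, 147 and 187.5 CPM and ratios of -0.47 and -0.35, with both MRL/lpr libraries below both C57BL/6 libraries. Sdhb, the iron-sulphur subunit, had 246.6, 275.2, 256.2 and 248.7 CPM and ratios of -0.16 (-0.28 to -0.034) and 0.043 (-0.087 to 0.17), the second of which was -0.023 with median-of-ratios scaling. Sdhc, a membrane anchor, had ratios of -0.32 and -0.53.

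Complex III, the cytochrome bc1 complex, held 710.3, 826.2, 477.4 and 675.9 CPM and had strain ratios of -0.22 (-0.29 to -0.15) and -0.50 (-0.59 to -0.42). All 4 members were lower in MRL/lpr at both ages. Uqcrb, a small subunit near the ubiquinone site, had 332.7, 404.7, 193.8 and 323.2 CPM and ratios of -0.28 and -0.74, with 46.3% of its transcript-end words shared. Uqcrc1, a core subunit, had 150.8, 168.1, 130 and 152.9 CPM and ratios of -0.16 (-0.32 to 0.0030) and -0.23 (-0.41 to -0.060). Uqcrc2 and the Rieske protein gene Uqcrfs1 had 10-week ratios of -0.22 and -0.54.

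Complex V held 1723.5, 1964.9, 1349.7 and 1686.5 CPM and had strain ratios of -0.19 (-0.24 to -0.14) and -0.32 (-0.37 to -0.27), the first of which was 0.039 in nuclei with no marker UMI of another class. Relative to ribosomal protein RNA it was lower in MRL/lpr at 6 weeks, at -0.44, and higher at 10 weeks, at 0.16 (0.10 to 0.21). Atp5g1, one of the genes for the membrane ring subunit c, had 400.1, 518.4, 284.5 and 404.4 CPM and ratios of -0.37 and -0.51, and was lower in MRL/lpr in 8 of 8 classes at both ages. Of its transcript-end words 33.3% are shared with 535 other genes, so its counts are uncertain. Atp5b, the catalytic beta subunit, had 381.6, 441.8, 389.6 and 366.7 CPM and ratios of -0.21 (-0.31 to -0.11) and 0.087 (-0.019 to 0.19). Atp5a1, the alpha subunit, had 334.6, 338.7, 253.7 and 299.4 CPM and ratios of -0.018 (-0.13 to 0.092) and -0.24 (-0.36 to -0.11). Of the rest, Atp5c1 and Atp5o were lower at both ages and Atp5h was at 0.012 (-0.10 to 0.13) and -0.57. The other gene ID of Atp5o, not used here, had 72, 60, 70 and 35 UMIs and so was higher in MRL/lpr at 10 weeks. Of the transcript-end words 43.0% occur elsewhere for the Atp5o row used and 54.8% for Atp5h.

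The strain ratios of the members varied with the length of the messenger at 10 weeks, though short and long members overlapped. The 19 members with transcripts under 1000 bases had a median log2 strain ratio of -0.60, with a range from -1.22 to -0.42, and the 17 longer ones had -0.30, from -0.54 to 0.19. Spearman's rho between length and 10-week ratio was 0.57 over the 36 genes, which share their libraries and are no independent replicates. At 6 weeks the medians were -0.28 and -0.19 and rho was 0.050. Over 39 nuclear-encoded subunits outside the 36, rho was 0.42 at 6 weeks and 0.46 at 10 weeks, so there it was similar at both ages. Their medians were -0.40 for 23 short and -0.22 for 16 long ones at 6 weeks, and -0.60 and -0.43 at 10 weeks. Among 11405 other genes the 10-week medians were -0.19 for short and 0.067 for long transcripts. All 8 complex IV members are among the 19 short ones, and their median at 10 weeks was -0.65. Length here is that of the longest annotated transcript, which for Atp5g1 is 4715 bases.

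**Figure D5:**
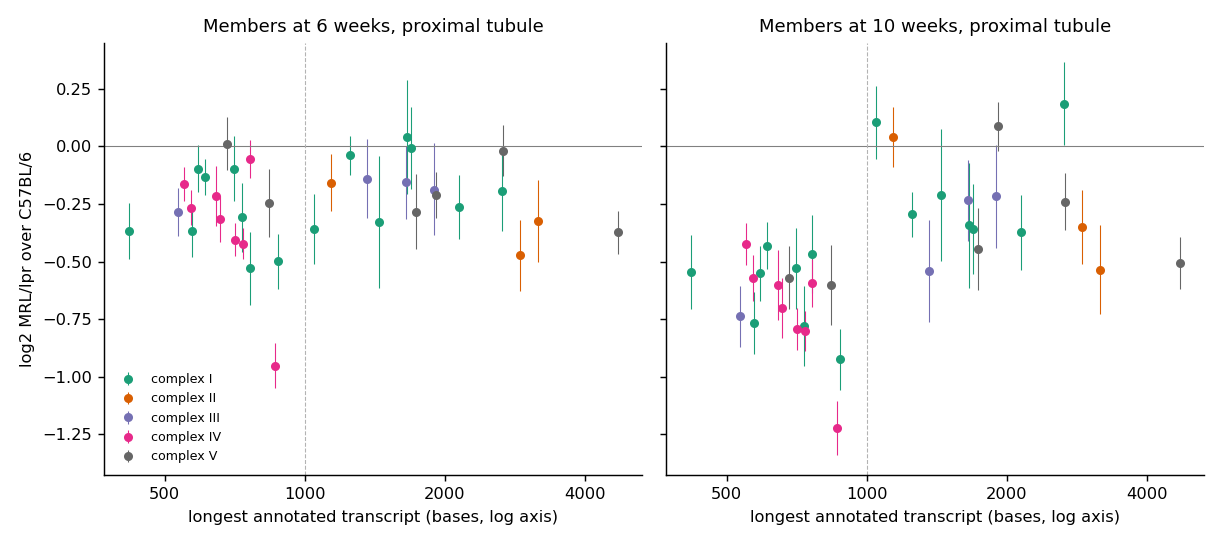
Log2 strain ratios of the 36 members in proximal tubule with 95% counting intervals (y axis) against the length of the longest annotated transcript on a log axis (x axis), at 6 weeks (left) and 10 weeks (right), coloured by complex, with a dashed line at 1000 bases. At 10 weeks the 19 members left of the line lie between -1.22 and -0.42 and the 17 to its right between -0.54 and 0.19, while at 6 weeks the ranges are -0.95 to 0.012 and -0.47 to 0.041.

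Older mice had less nuclear-encoded respiratory chain RNA in both strains. From 6 to 10 weeks the member sum of proximal tubule had a log2 ratio of -0.53 (-0.55 to -0.51) in MRL/lpr and -0.29 (-0.31 to -0.27) in C57BL/6. These ratios use the same 4 libraries as the strain ratios and are not independent of them. Over the 8 classes the ratio ran from -0.54 (podocyte) to -0.23 (endothelium) in MRL/lpr and from -0.36 (intercalated cell) to -0.080 (connecting tubule) in C57BL/6, and of the 16 intervals that of C57BL/6 podocytes alone spanned 0 (-0.36 to 0.0086). In proximal tubule 29 of 36 members were lower at 10 weeks in both strains, against 29.2% of all genes, and 12 were lower by at least 0.32 on the log2 scale in both, against 5.3%. Ndufa9 was the only member higher at 10 weeks in both strains, as 24.4% of all genes were, with intervals that spanned 0.

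By complex, the age ratio in proximal tubule was again lowest for complex IV, at -0.76 in MRL/lpr and -0.39 in C57BL/6. Complex II had the smallest, at -0.021 (-0.11 to 0.064) and -0.11 (-0.20 to -0.021). Ribosomal protein genes had median age ratios of -0.91 and -0.16 over 79 genes. In C57BL/6 the members' median of -0.19 was thus about that of the ribosomal protein genes, and in MRL/lpr, at -0.49, it was nearer 0 than theirs. By sums the lists were not level in C57BL/6, where member CPM per ribosomal protein CPM was 0.638 at 6 weeks and 0.584 at 10 weeks. In MRL/lpr this ratio was 0.446 at 6 weeks and 0.572 at 10 weeks.

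Subunits outside the 36 showed the same strain pattern. Of 39 other nuclear-encoded subunits, 36 were lower in MRL/lpr proximal tubule at both ages, against 27.9% of all genes. At both ages 2 were higher, against 33.4%, and 19 were lower by at least 0.32 on the log2 scale, against 9.28%. Their median ratios were -0.27 at 6 weeks and -0.54 at 10 weeks. The leading ones were Uqcr10, a small complex III subunit, with 469.6, 651.3, 323.3 and 521 CPM and ratios of -0.47 and -0.69, and Atp5j, coupling factor 6 of the ATP synthase, with 483.3, 626.1, 273.1 and 487.5 CPM and ratios of -0.37 and -0.84. In both genes each MRL/lpr library was below both C57BL/6 libraries.

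Tissue isoforms of the subunits were low, as 4 of 7 listed genes reached 50 UMIs. Cox6b2, the testis isoform of a cytochrome c oxidase subunit, was higher in MRL/lpr, with 66.2, 47.3, 62.3 and 34.1 CPM and ratios of 0.48 (0.21 to 0.76) and 0.87 (0.56 to 1.20). Cox6a2, the heart and muscle isoform, was counted with 16, 32, 2 and 5 UMIs, and Cox7a1, also a muscle isoform, with 131, 94, 92 and 71. Cox7a2l, which helps to join complexes into supercomplexes, had 52.7, 53.9, 42 and 43.3 CPM and ratios of -0.031 (-0.31 to 0.25) and -0.044 (-0.36 to 0.28). Cox4i2, Cox8b and Ndufa4l2 had 0 to 5 UMIs per library. A count of 0, as for Ndufa4l2 in MRL/lpr at 6 weeks, allows up to 3 counts.

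Of 11 carriers and other inner membrane genes, 7 were lower in MRL/lpr at both ages, against 27.9% of all genes, and 2 were higher, against 33.4%. Their sum was 1633.8, 1943.4, 1411.3 and 1772.7 CPM, with strain ratios of -0.25 (-0.30 to -0.20) and -0.33 (-0.38 to -0.28), while the median over the 11 genes was -0.26 and -0.015. Slc25a5, an ADP/ATP carrier, had 309.6, 356.5, 316.8 and 316.8 CPM, and Cycs, cytochrome c, had 272.6, 290.2, 150.9 and 233.6 CPM with ratios of -0.090 and -0.63. Nnt, the transhydrogenase that makes NADPH from the proton gradient and is known to be mutated in some C57BL/6 substrains, had 58, 60, 79 and 52 UMIs and ratios of -0.48 (-1.03 to 0.064) and 0.40 (-0.12 to 0.93), so no strain difference beyond counting error was seen. Of 26 assembly and expression factors 7 were lower and 6 higher at both ages, against 27.9% and 33.4% of all genes. Their medians were -0.087 and 0.098. Ndufaf4, a complex I assembly factor, had ratios of 0.092 and -0.31, and Lrpprc, which stabilises mitochondrial messengers, had -0.12 and 0.45 (0.27 to 0.63).

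Citric acid cycle and glycolysis genes were likewise mixed. Of 15 citric acid cycle genes 7 were lower at both ages and 2 higher, against 27.9% and 33.4% of all genes. Their medians were -0.20 and -0.12. Ogdh, a subunit of 2-oxoglutarate dehydrogenase, had 219.5, 258.2, 287 and 254 CPM and ratios of -0.23 and 0.18. Of 16 glycolysis genes 15 reached 50 UMIs, and 5 of these were lower and 3 higher at both ages, against the same shares of all genes. The glycolysis medians were 0.044 and -0.20 and the summed ratios -0.17 and -0.48. Ldhb, a lactate dehydrogenase subunit, had ratios of 0.035 and 0.11.

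The transcriptional regulators of mitochondrial genes did not run with the members at 10 weeks, when 6 of 15 were lower in MRL/lpr, against 44.1% of all genes. At 6 weeks 11 of 15 were lower, against 50.5%. Of 15 listed, 6 were lower in MRL/lpr at both ages and 4 higher, against 27.9% and 33.4% of all genes. Their medians were -0.062 and 0.061. Ppargc1a, the coactivator PGC-1alpha that drives mitochondrial biogenesis, had 426.8, 576.5, 581.7 and 500.1 CPM and ratios of -0.43 (-0.52 to -0.34) at 6 weeks and 0.22 (0.13 to 0.31) at 10 weeks. The oestrogen-related receptor gene Esrra, one of its partners, had 180.8, 183.4, 206.2 and 203.4 CPM and ratios of -0.020 (-0.17 to 0.13) and 0.019 (-0.13 to 0.16). Esrrg, a related receptor, had ratios of -0.14 and -0.064.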

How the data were processed

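The values deposited by the authors are raw UMI counts for each gene in each barcode. Cell Ranger made them. Its version is 5.0.0 in the file headers, whereas the submitters' processing notes name 3.1.0. No source used here gives the genome build, intron counting or barcode calling. Nuclei were kept with at least 200 genes and at most 10% mitochondrial UMIs, and doublets were removed with Scrublet in scanpy 1.11.5 at 0.8% expected per 1000 barcodes. Its threshold marked 0 in MRL/lpr at 6 weeks, where the top scores at that rate were taken. In all, 701, 863, 427 and 751 barcodes were removed as doublets. A class needed 3 marker UMIs of 2 genes and 2 times the UMIs of any other class. UMIs were summed per class and library. Intervals are 95% exact Poisson or conditional binomial, and for ratios of sums a normal approximation on the log scale. Genes needed 50 UMIs. The ratio code was checked on simulated counts. Named genes were those with most UMIs in each complex (5, 2, 2, 4 and 3) or list (2), the 3 lowest by strain ratios, and chosen isoforms and regulators. Members and lists were chosen with earlier results of these data known. Of the gene IDs 25585 matched GENCODE M21 (GRCm38). Some genes that this rule names are not reported here.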

Additional observations from a re-analysis of the deposited data

Results flagged for a closer look

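In proximal tubule nuclei the strain ratios of some sums and genes lay on opposite sides of 0 at 6 and 10 weeks, with both counting intervals off 0. None of these differences between the ages was tested, since there is 1 library per strain and age. Among sums this held for ribosomal protein RNA (0.25 at 6 weeks and -0.48 at 10 weeks), mitochondrially encoded RNA (0.40 and -1.18) and other cytoplasmic messengers (0.17 and -0.19). The 6-week sign of the last sum was not that of its median gene, which lay at -0.063. Ftl1 alone had a larger excess of CPM in MRL/lpr at 6 weeks than this whole list. Among the 36 members it held for Ndufs1, the large iron-sulphur subunit of complex I (-0.19 and 0.19). Ppargc1a (-0.43 and 0.22) and Ogdh (-0.23 and 0.18) were lower in MRL/lpr at 6 weeks and higher at 10 weeks, whereas Rps19, a ribosomal protein gene (0.61 and -0.16), mt-Co1 (0.25 and -0.95) and mt-Co3 (0.39 and -0.97) were the other way round. In endothelium the members-to-ribosomal ratio was -0.19 at 6 weeks and 0.26 at 10 weeks.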

How the results depend on the processing

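No paired analysis was possible because each strain and age has 1 library. Each result was recomputed under 4 to 17 of 20 alternative settings. In these no ratio of at least 0.32 on the log2 scale changed sign, and the counts of 4 libraries, 30 members and 24 lower ratios (7 other classes and 5 complexes at 2 ages) moved by less than 1.5 times where they were recomputed. The member sum ratio in proximal tubule was -0.15 in nuclei without other marker UMIs at 6 weeks, and -0.37, -0.21 and -0.33 in nuclei under 500, of 500 to 1000 and over 1000 UMIs. At 10 weeks it was -0.17, -0.44 and -0.66 in these bins, -0.53 with at least 500 genes, -0.58 with median-of-ratios scaling and -0.47 as a mean over nuclei. Chosen after seeing the data, leaving out Cox5b gave -0.24 and -0.48, and leaving out 10 members that share transcript ends gave -0.23 and -0.45. Per ribosomal protein RNA, the ratio was -0.41 and -0.074 without other marker UMIs and -0.49 and -0.0037 without Cox5b. Between the ages it was -0.58 (MRL/lpr) and -0.23 (C57BL/6) without other marker UMIs, and in C57BL/6 -0.26 with at least 500 genes, -0.23 with median-of-ratios scaling and -0.31 as a mean over nuclei. In nuclei without other marker UMIs 34 of 67 results left their counting interval. With at least 500 genes, 11 of 66 did, among them the 10-week ratios of principal cells (-0.053), podocytes (-1.03), endothelium (-0.88) and connecting tubule (-0.77). The cause of these shifts was not tested. Smaller ratios changed sign without other marker UMIs in complex V (0.039), thick ascending limb (0.062), Sdhb (0.043) and Atp5a1 (0.017) at 6 weeks and in Sdhb (-0.11) and Atp5b (-0.13) at 10 weeks. Depth limits the other classes most, with 283 to 538 member UMIs in podocytes.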
